A study of Mus musculus with 35 samples.

Results

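The transcripts described here are 10 liver genes, Alb, Apoa1, Apoa2, Apob, Fgb, Ambp, Itih4, Fabp1, Cps1 and Hpx, of the 12393 genes measured in 35 mouse arrays. They were chosen by name because 1 array of the Myc/Bcl6 tumours carried them at high intensity, so their values in the Myc/Bcl6 arrays are a description and were not tested. Each gene is represented by the probe set with the highest mean over the 35 arrays. Values are log2 intensities of the Affymetrix Mouse 430A2 array, and a difference of 1 is a doubling of the intensity.

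B cells sorted from wild-type mice and lymphoid tumours of 3 engineered genotypes were profiled, in 9 groups, to compare normal with malignant B cells. Bone marrow gave 3 of the sorted groups. Its pro-B arrays (n = 3) held cells gated on B220+ with high CD43 and without IgM, its pre-B arrays (n = 3) differed from these by a low CD43 gate, and its plasma cell arrays (n = 3) were gated as Cd138+ and Cd93- with low B220. Spleen gave the other sorted groups. Transitional B cells (n = 4) were taken by B220+ and Cd93+, germinal centre (GC) B cells (n = 5) by B220+ with high PNA binding, and plasmablasts (n = 4) by B220+ and Cd138+ without Cd93. Pre-B and transitional cells and pro-B replicates 1 and 2 were of strain 129. Pro-B replicate 3 and the GC, plasmablast and plasma cell samples were of strain B6. The tumours came from mice labelled Bcl6 knock-in (titled Bcl6 Trans, n = 4), Bcl6/Myc dual-transgenic (n = 3) and Lig4/p53 double knock-out (n = 6). The tumours were profiled as tissue and not as sorted cells, the organ each was taken from is not given in the sources used here, and neither the promoters that drive the transgenes nor pooling of mice is stated there. In such bulk samples, fewer cells of a type and less RNA per cell cannot be told apart.

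Hepatocytes, the main cells of the liver, make most of the proteins of blood plasma and process nutrients, nitrogen and lipids. Albumin (Alb) keeps up the osmotic pressure of plasma, Ambp is the precursor of alpha-1-microglobulin and bikunin, Itih4 is an inter-alpha-trypsin inhibitor heavy chain, Fgb is the beta chain of fibrinogen, and Hpx binds heme. Apoa1 and Apoa2 are proteins of high density lipoprotein and Apob is that of low density lipoprotein and chylomicrons. Fabp1 carries fatty acids inside hepatocytes and enterocytes, and Cps1 starts the urea cycle in mitochondria. B cells are not known as a source of these proteins, and Apoa1, Apob, Fabp1 and Cps1 are also made by the small intestine.

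Promoters of Alb, Apoa2, Apob and Fabp1 are shown because these 4 genes also passed a test outside the Myc/Bcl6 group, described further on. The sequences are the 250 bases before each RefSeq start site in the mouse build GRCm38.p6, on the plus strand, read 5′ to 3′. Capitals mark matches, on either strand, to motifs of factors active in hepatocytes and to the TATA box, searched as TATAAA. The searched letters were GTTAAT for the short form of the HNF1 motif and CAAAGTCCA for HNF4. For FOXA factors they were TGTTTAC and the variant TGTTTGC, and for C/EBP factors TTGCGCAA and the looser form TTGCNNAA. Apoa2 has 2 start sites in the table.
Alb promoter, chr5:90460620-90460869: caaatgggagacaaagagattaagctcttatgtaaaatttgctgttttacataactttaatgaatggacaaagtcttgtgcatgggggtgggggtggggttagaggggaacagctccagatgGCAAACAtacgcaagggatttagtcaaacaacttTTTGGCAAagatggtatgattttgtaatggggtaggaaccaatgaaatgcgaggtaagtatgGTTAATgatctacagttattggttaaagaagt
Apoa2 promoter of the first start site, chr1:171221314-171221563: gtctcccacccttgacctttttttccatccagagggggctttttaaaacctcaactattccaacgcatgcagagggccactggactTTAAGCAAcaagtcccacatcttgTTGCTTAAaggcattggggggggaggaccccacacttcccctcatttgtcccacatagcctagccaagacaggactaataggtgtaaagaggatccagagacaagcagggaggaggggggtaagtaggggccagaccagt
Apoa2 promoter of the second start site, chr1:171224804-171225053: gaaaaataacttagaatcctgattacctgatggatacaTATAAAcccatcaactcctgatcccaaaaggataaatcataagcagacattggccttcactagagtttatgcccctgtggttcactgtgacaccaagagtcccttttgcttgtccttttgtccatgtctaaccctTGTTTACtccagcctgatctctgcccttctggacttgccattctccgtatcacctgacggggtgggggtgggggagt
Apob promoter, chr12:7977427-7977676: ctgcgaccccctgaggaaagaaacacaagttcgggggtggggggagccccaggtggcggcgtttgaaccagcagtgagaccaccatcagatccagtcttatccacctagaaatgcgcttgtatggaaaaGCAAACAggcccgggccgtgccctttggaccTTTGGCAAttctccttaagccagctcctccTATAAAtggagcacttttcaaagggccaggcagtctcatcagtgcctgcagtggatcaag
Fabp1 promoter, chr6:71199629-71199878: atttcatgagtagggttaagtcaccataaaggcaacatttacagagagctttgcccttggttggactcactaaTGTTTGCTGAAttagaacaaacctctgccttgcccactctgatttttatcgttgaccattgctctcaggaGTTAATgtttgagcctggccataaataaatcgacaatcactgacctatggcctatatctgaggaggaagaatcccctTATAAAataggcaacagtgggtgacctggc

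The RefSeq table held 10 promoters of 9 of the 10 genes (not of Cps1) and 32851 promoters in all. TTGCNNAA was found in 6 of the 10 promoters, those of Alb, Apoa2, Apob, Fabp1, Fgb and Hpx, and in 9.56% of all promoters. TGTTTGC was found in 5 (Alb, Ambp, Apoa1, Apob and Fabp1) against 4.3% of all, TGTTTAC in 1 (Apoa2) against 3.17%, and GTTAAT in 3 (Alb, Fabp1 and Fgb) against 6.43%. A TATAAA was found in 3 promoters (Apoa2, Apob and Fabp1) against 12.4% of all, and in Fabp1 it lay at positions -30 to -25 from the start site. The full HNF1 motif, CAAAGTCCA and TTGCGCAA were in 0 of the 10, against 0.00913%, 0.384% and 0.164% of all promoters. The short HNF1 form is part of the full one, every TTGCGCAA is also a TTGCNNAA, and the TGTTTGC and TTGCNNAA matches of the Fabp1 promoter overlap. A match is a description of letters and not evidence of a bound factor.

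In Myc/Bcl6 tumour replicate 2 all 10 genes stood far above both other tumours of the group. Alb was 13.99 in replicate 2 against 4.28 in replicate 1 and 4.48 in replicate 3. Among the other plasma proteins, Itih4 was 12.77 against 5.09 and 5.76, Ambp 11.90 against 3.55 and 4.37, Fgb 11.77 against 3.85 and 3.87, and Hpx 11.34 against 3.18 and 4.90. Among the 3 apolipoproteins, Apoa1 was 12.28 against 5.92 and 6.07, Apoa2 12.28 against 4.20 and 4.02, and Apob 10.90 against 4.97 and 4.25. For each of these 8 secreted proteins, replicates 1 and 3 lay within 2 log2 units of each other.

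Of the proteins that stay in the cell, the urea cycle enzyme Cps1 was 12.30 in replicate 2 against 2.97 in replicate 1 and 3.43 in replicate 3. Fabp1 was 13.54 in replicate 2, and its other values, 5.27 in replicate 1 and 8.54 in replicate 3, lay farther apart than those of any other of the 10 genes. The second Fabp1 probe set gave 5.33, 11.58 and 5.33, so the high value of replicate 3 was seen on 1 of the 2 probe sets only. The 4 probe sets of Apoa1 gave 12.28 to 12.69 in replicate 2.

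**Figure D1:**
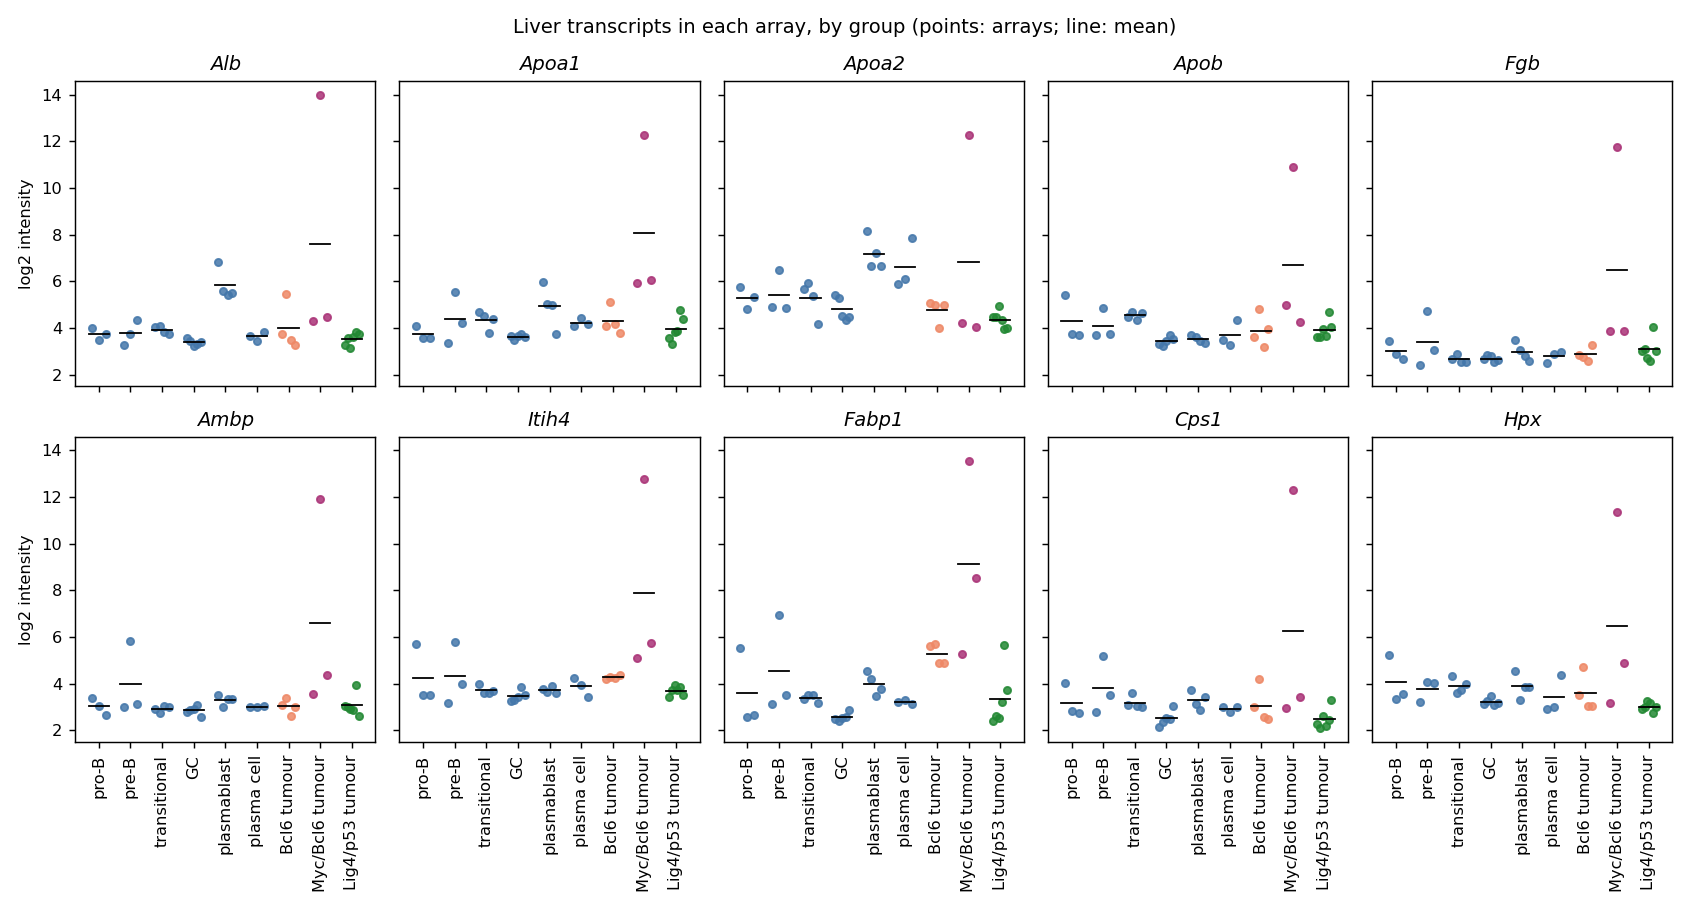
Log2 intensity (vertical axis) of the 10 liver transcripts in each of the 35 arrays, by group, with 1 panel per gene, points for arrays in replicate order (blue for sorted cells, other colours for the tumour groups) and lines for group means. Myc/Bcl6 replicate 2 lies at 10.90 to 13.99, above all 34 other arrays, whose highest values are 8.54 (Fabp1) and 8.14 (Apoa2).

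To set the 10 genes beside the whole array, the difference of each gene from the median of the other arrays of its group was taken. In replicate 2 this difference was over 2 log2 units (over 4-fold) in 10 of 10 genes and in 5.56% of all genes (689 of 12393). The lowest was 6.28, the median 7.63 and the highest 9.61 (Alb). These values chose the genes, so the count supports nothing by itself. In replicates 1 and 3, whose reference then includes replicate 2, the differences ran from -5.77 to -2.61 and from -4.66 to -0.87, and 0 of the 10 were over 2. Of the 100 genes with the largest difference in replicate 2, 60 were these 10 or genes of the lists of hepatocyte products described next.

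**Figure D2:**
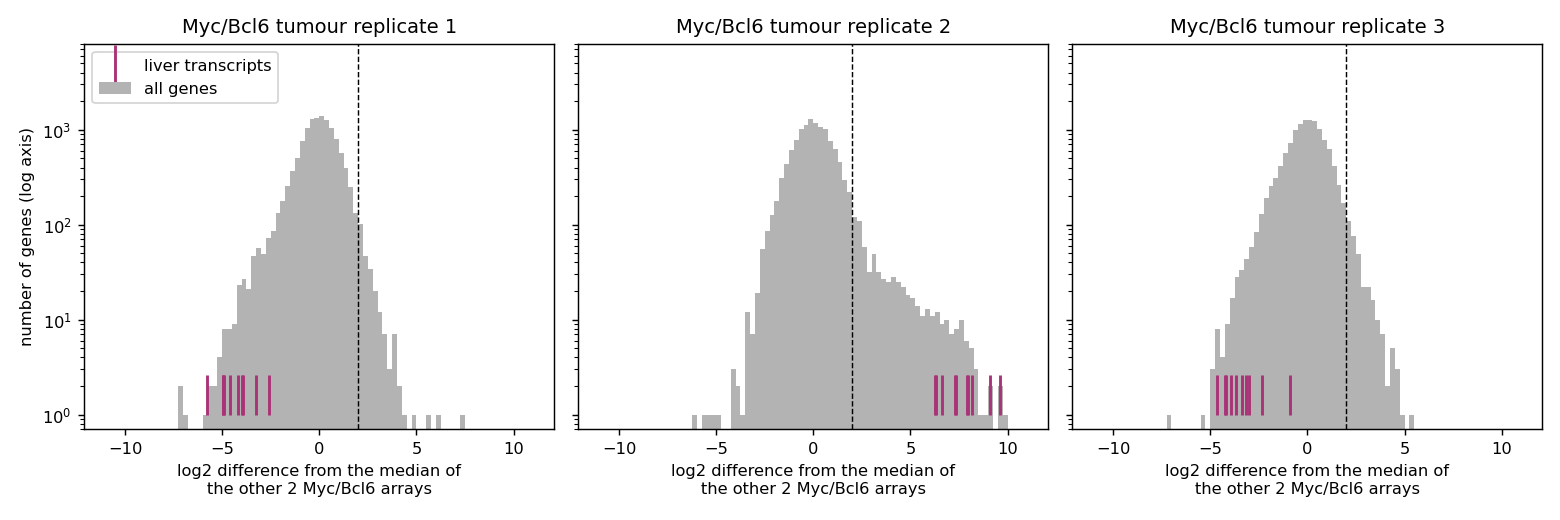
Number of genes (log axis) by log2 difference from the median of the other 2 Myc/Bcl6 arrays, with 1 panel per tumour, grey bars for all 12393 genes, marks for the 10 liver transcripts and a dashed line at 2. The marks lie at 6.28 to 9.61 in replicate 2, at the end of a long right tail, and below 0 in replicates 1 and 3.

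Further hepatocyte products were read in 11 lists of 135 measured genes, which do not include the 10. In Myc/Bcl6 replicate 2, 112 of the 135 (83.0%) were over 2 log2 units above the other Myc/Bcl6 arrays, with a median difference of 4.86 against 0.03 for all genes. Plasma proteins were represented by 15 of 16 genes, among them the antiprotease Serpina1c (12.47 in replicate 2, 2.24 and 2.71 in replicates 1 and 3), which had the largest difference of all genes, 9.99. Coagulation and fibrinolysis factors were represented by 15 of 17, with the fibrinogen alpha and gamma chains Fga (12.52 against 2.75 and 3.08) and Fgg (12.18 against 3.34 and 4.01). The 3 chains of fibrinogen, Fga, Fgb and Fgg, were thus all high in the same array. Complement components had 10 of 11 genes over 2, such as C9, part of the membrane attack complex (10.21 against 3.82 and 5.45). Acute phase proteins had 8 of 10, with Apcs, serum amyloid P (10.29 against 3.27 and 3.34).

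Metabolic genes were high in the same array. Lipid genes beside the 3 apolipoproteins above had 8 of 9 over 2, such as Apoc3 of triglyceride-rich lipoproteins (11.16 against 4.22 and 4.20). Urea cycle and amino acid genes beside Cps1 had 15 of 17, with Bhmt, betaine-homocysteine methyltransferase, at 13.20 against 4.99 and 4.61. Cytochromes and other detoxification genes had 19 of 22, with Cyp2e1, the ethanol-oxidizing cytochrome P450, at 12.32 against 3.13 and 3.02. Glucose and fructose genes had 7 of 8, with Pck1, the gluconeogenic PEP carboxykinase, at 10.85 against 3.13 and 3.50, and bile acid genes had 10 of 10, with the export pump Abcb11 at 9.25 against 2.72 and 2.86. Transcription factors of hepatocytes had 5 of 12 and a lower median difference, 1.35, with Creb3l3 at 9.66 against 5.12 and 5.05 and Nr1h4, the bile acid receptor FXR, at 8.59 against 4.97 and 5.77. Of 3 genes typical of fetal liver, among them alpha-fetoprotein (Afp, 4.96 against 5.80 and 6.61), 0 were over 2.

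Markers of the other liver cells did not all go with the hepatocyte genes. Kupffer cells, the macrophages of the liver, had 4 of 6 genes over 2: Clec4f (8.98 against 3.48 and 4.29, and at most 4.05 in the 32 arrays outside the group), Vsig4 (8.96 against 3.43 and 4.98), Marco (8.76 against 3.75 and 3.95) and Cd5l (9.84 against 5.62 and 7.52). In the 32 arrays outside the group Vsig4 reached 6.25, Marco 8.16 and Cd5l 7.98, the last 2 in Bcl6 replicate 4. Sinusoidal endothelium had 1 of 6, the lectin Clec4g (7.91 against 3.54 and 4.71), and stellate cells 1 of 6, Dcn (7.83 against 6.31 and 4.92). Bile duct cells had 0 of 6 over 2 and 1 lower by over 2. General macrophage markers had 0 of 7.

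Outside the liver, 0 of 9 exocrine pancreas genes, 0 of 8 kidney tubule genes, 0 of 10 skeletal muscle genes, 0 of 7 brain genes and 0 of 10 lens and testis genes were over 2 in replicate 2. Among enterocyte genes 1 of 7 was, Fabp2 (7.07 against 3.62 and 3.27), the intestinal relative of Fabp1. Among fat cell genes 2 of 7 were, Lep (5.87 against 2.69 and 2.83) and Car3, a carbonic anhydrase that is abundant in fat, muscle and liver. Car3 was also high in replicate 1 (9.41 in replicate 1, 11.29 in replicate 2 and 3.28 in replicate 3). The mean of the 10 liver transcripts was 4.33 in replicate 1 and 12.31 in replicate 2.

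**Figure D3:**
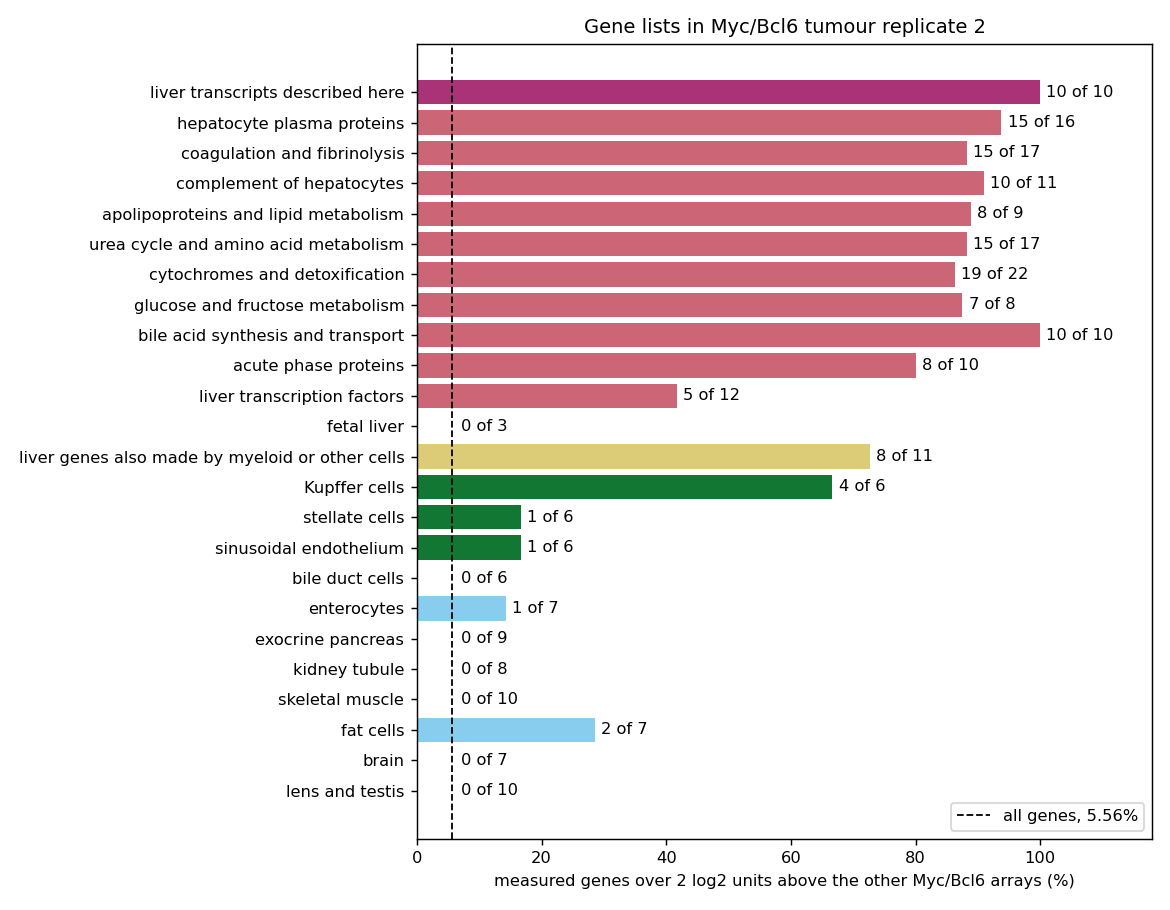
Share of the measured genes of each list (horizontal axis, percent) that lay over 2 log2 units above the median of the other Myc/Bcl6 arrays in Myc/Bcl6 replicate 2, with the counts printed, colours for kinds of list (red hepatocyte, yellow shared, green other liver cells, light blue other organs) and a dashed line at the share of all genes, 5.56%. In each of the 9 lists of hepatocyte products and metabolism at most 3 genes fall short, Kupffer cells have 4 of 6 genes over 2, and pancreas, kidney, muscle, brain, and lens and testis have 0.

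The array kept part of the signal of B-lineage markers, which are the check of the tumour label. Ms4a1 (CD20) was 11.56 in replicate 2 and 11.37 in replicate 3, within the 11.44 to 11.83 of GC cells or just below, and 4.39 in replicate 1. Cd79a, a chain of the antigen receptor, was 5.51, 6.66 and 7.54 in replicates 1 to 3, below the 10.31 to 11.34 of GC cells. In replicate 2 Cd79b (7.61), Ebf1 (6.74), Cd22 (8.53) and Ptprc (10.47) were also below every GC array, and Pax5 (5.0) was above every one. The mean over 7 B-cell markers was 5.94, 8.08 and 8.48, against 9.59 to 10.15 in GC cells, so that the array with the liver transcripts was not the one with the fewest B-cell marker transcripts. The signal of the Actb and Gapdh control probe sets at the 3' end exceeded that at the 5' end by 3.79, 4.69 and 3.23 log2 units in the 3 tumours, most in replicate 2, and this 3' minus 5' difference is larger in shorter RNA. How far other tissue in the sample and RNA quality bear on these values was not tested.

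Outside the Myc/Bcl6 group the 10 genes were low. Their medians over the 32 arrays ran from 2.81 (Fgb) to 5.04 (Apoa2), in a table whose values ran from 1.71 to 14.29. Alb, Apoa1 and Apoa2 were highest in plasmablast replicate 1, at 6.83, 5.95 and 8.14. Apob and Hpx were highest in pro-B replicate 1 (5.41 and 5.24), and Fgb, Ambp, Itih4, Fabp1 and Cps1 in pre-B replicate 2 (4.71, 5.84, 5.79, 6.95 and 5.19). When the 8 groups were ordered by mean level for each gene, neighbouring groups overlapped in their arrays in every case but 1, Fabp1 in plasma cells (3.12 to 3.29) and GC cells (2.39 to 2.86).

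Besides Myc/Bcl6 replicate 2, only 3 of the 35 arrays had any of the 10 genes over 2 log2 units above the other arrays of its group. Myc/Bcl6 replicates 1 and 3 could hardly pass, since their reference includes replicate 2. Fabp1 was 8.54 in replicate 3 and 5.27 in replicate 1, though its second probe set gave 5.33 in both. Pre-B replicate 2 had 4, Ambp, Itih4, Fabp1 and Cps1, with 10.7% of all genes over 2. Pro-B replicate 1 had 2, Itih4 and Fabp1, with 6.37% of all genes. Lig4/p53 replicate 5 had 1, Fabp1, with 0.734% of all genes. Pre-B replicate 2 and pro-B replicate 1 are, with Bcl6 replicate 2, the 3 arrays with a narrow spread of values (interquartile range 2.03, 2.09 and 2.15 against 2.33 to 4.23 elsewhere). These 3 were taken by rank. The next lowest ranges were those of the Myc/Bcl6 tumours, 2.63, 2.85 and 2.33 in replicates 1 to 3.

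Genes of lens crystallins and sperm proteins, not known from lymphoid cells, served as a second reading of such raised low values. Their mean over 10 genes was 5.21 in pre-B replicate 2 against 3.34 and 3.58 in the other pre-B arrays, and the mean of the 10 liver transcripts was 5.32 against 3.30 and 3.84. In pro-B replicate 1 the lens and testis mean was 4.32 against 3.22 and 3.25 and the liver mean 4.66 against 3.38 and 3.41. In Lig4/p53 replicate 5 they were 3.99 (others 3.17 to 3.65) and 3.99 (others 3.20 to 3.53). Both lists were therefore raised together in these arrays, whereas in Myc/Bcl6 replicate 2 the lens and testis mean, 4.11, lay below the 4.33 and 4.73 of the other tumours. Over the 32 arrays outside that group the 2 means had a Pearson r of 0.69 and a Spearman rho of 0.48, and the liver mean had an r of -0.77 and a rho of -0.73 with the interquartile range (a description, since all values of an array share 1 normalization).

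**Figure D4:**
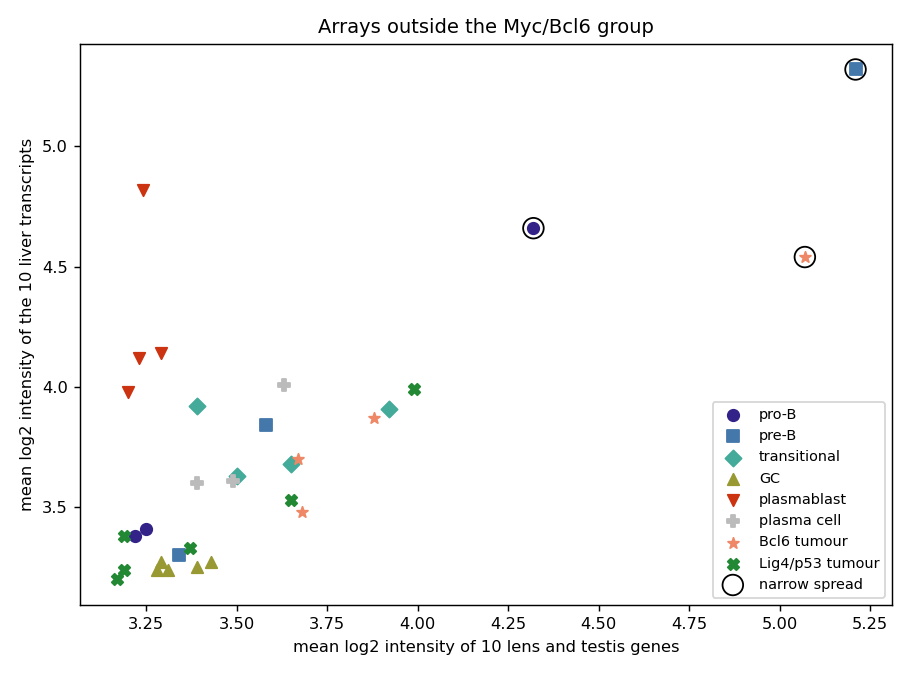
Mean log2 intensity of the 10 liver transcripts (vertical axis) against that of 10 lens and testis genes (horizontal axis) in the 32 arrays outside the Myc/Bcl6 group, with a symbol per group and circles around the 3 arrays of narrow spread. The 4 plasmablast arrays lie at 3.98 to 4.82 on the vertical axis and 3.20 to 3.29 on the horizontal one, and their liver mean exceeds the lens and testis mean by 0.78 to 1.57, against at most 0.53 in the other arrays.

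Plasmablasts, the dividing cells on the way to plasma cells, carried more Alb and Apoa2 signal than GC cells of the same organ and strain. Alb was 6.83, 5.58, 5.43 and 5.48 in the 4 plasmablast arrays and 3.58, 3.46, 3.24, 3.33 and 3.40 in the 5 GC arrays. Every plasmablast value was thus above every GC value, and limma gave a log2 difference of 2.42 ± 0.28 (SE, adjusted p = 0.000131). Apoa2 was 8.14, 6.65, 7.21 and 6.66 in plasmablasts and 5.41, 5.28, 4.52, 4.35 and 4.45 in GC cells, again with no overlap (2.36 ± 0.47, limma adjusted p = 0.0185). The 10 genes had 2 called higher and 0 lower, where 0.121% of all genes (15 of 12393) were called higher and 0.557% lower. In the main fit Alb and Apoa2 thus stood beside few other genes called higher. First of them was Pdia4, a disulfide isomerase of the secretory pathway (3.64). How few depends on the fit, since all genes called in either direction were 84 here and 31 to 2673 in the alternatives. They were 845 without the arrays of narrow spread and 1679 in the plasmablast and GC arrays alone. Every plasmablast array lay above every GC array in 8.4% of all genes.

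The other 8 genes did not pass in plasmablasts. Fabp1 was 4.52, 4.18, 3.48 and 3.75 against 2.47, 2.39, 2.52, 2.56 and 2.86 in GC cells, with no overlap (1.43 ± 0.60, limma adjusted p = 0.412). Apoa1 was 5.95, 5.04, 4.99 and 3.72 against 3.64, 3.47, 3.67, 3.73 and 3.60, with the fourth plasmablast array inside the GC range (1.30 ± 0.39, limma adjusted p = 0.146). All 4 probe sets of Apoa1 had higher plasmablast means (4.82 to 5.02) than GC means (3.12 to 3.62). Apob was almost level, 3.36 to 3.70 in plasmablasts and 3.21 to 3.68 in GC cells, a difference of 0.09 with a 95% interval from -0.60 to 0.79. The 95% intervals reached 1.00 for Fgb, 1.18 for Itih4, 1.28 for Ambp, 1.45 for Hpx and 1.58 for Cps1, so that for these 5 they included a doubling. The median difference was 0.72 over the 10 genes and 0.05 over all genes.

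Of the 135 hepatocyte list genes, 2 rose in plasmablasts and 0 fell, with a median difference of 0.23 against 0.05 over all genes. The genes that rose were Serpina1c (3.89, 3.55, 2.66 and 4.39 in plasmablasts, 1.76 to 2.11 in GC cells, 1.67 ± 0.32, limma adjusted p = 0.0129) and Apoc3 (5.13, 4.36, 4.57 and 4.29 against 2.86 to 3.44, 1.5 ± 0.30, limma adjusted p = 0.018). In 28 of the 135 list genes and in 3 of the 10 (Alb, Apoa2 and Fabp1), every plasmablast array lay above every GC array, which held for 8.4% of all genes. The reverse, every plasmablast array below every GC array, held for 2 of the 135, 0 of the 10 and 7.42% of all genes. Fga was among the 28, at 4.18, 3.78, 3.73 and 3.98 against 2.19 to 2.43, and Mup3, a major urinary protein of liver, another, at 4.69, 4.00, 4.09 and 4.29 against 3.05 to 3.38. Car3 was 5.66, 4.36, 4.61 and 4.61 against 2.44 to 2.91. The separation is from GC cells and need not hold for other stages. In transitional cells Fga was 2.76 to 3.32, below the plasmablasts, and Mup3 3.40 to 4.48, overlapping them. Car3 was higher, 6.93 and 6.58, in pro-B replicates 2 and 3.

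**Figure D5:**
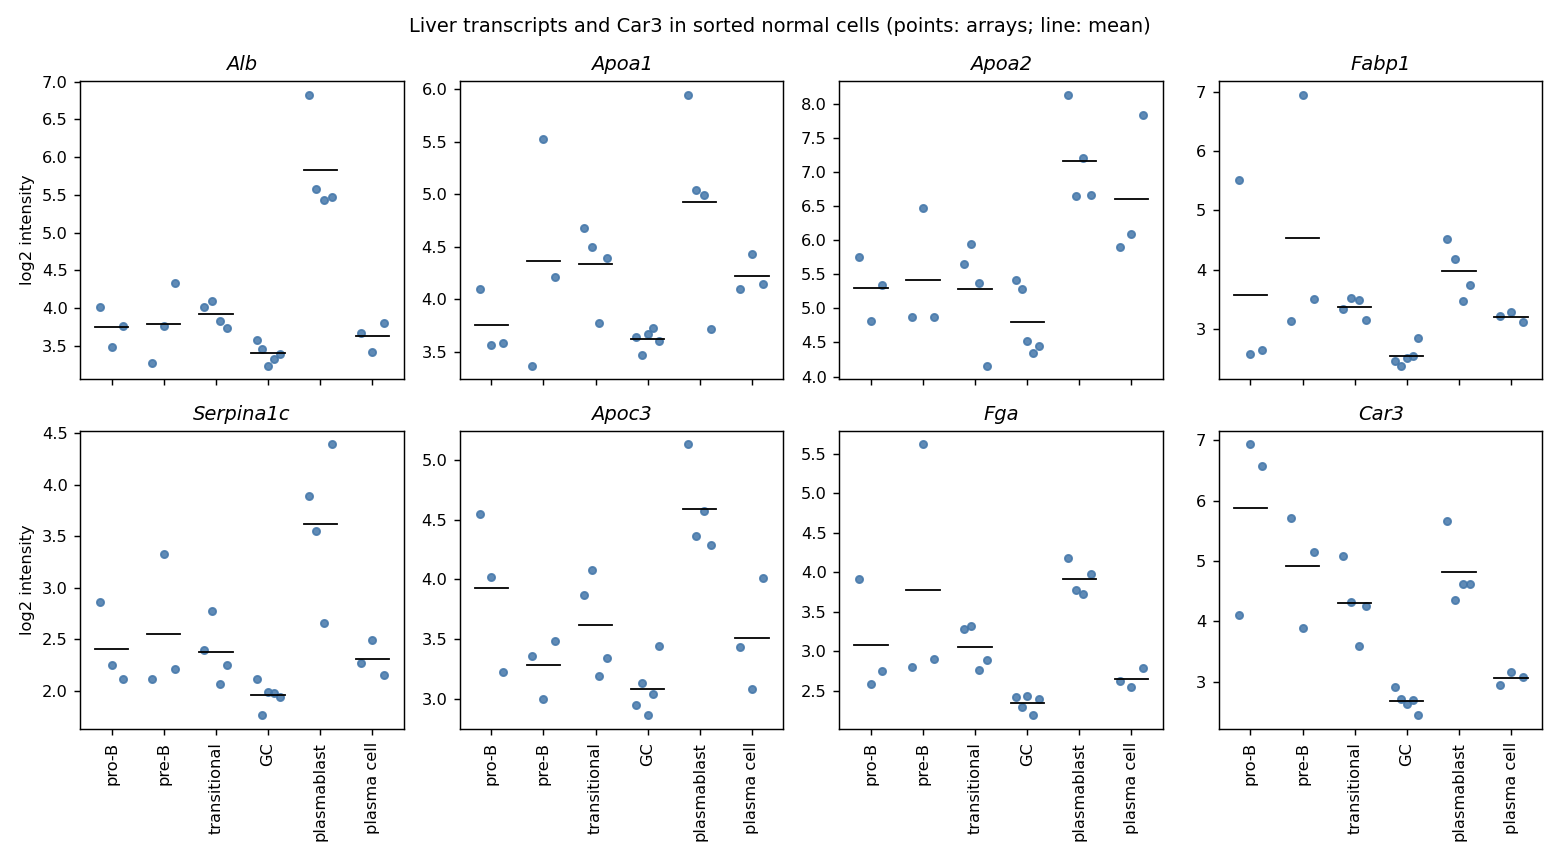
Log2 intensity (vertical axes, each with its own range) of 4 of the 10 liver transcripts (top row), of Serpina1c, Apoc3 and Fga, and of Car3 in the 22 arrays of sorted normal cells, with points for arrays and lines for group means. Alb, Apoa2, Fabp1, Serpina1c, Apoc3, Fga and Car3 have no plasmablast array within the range of the GC arrays.

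Lens and testis genes did not move with these values: their mean was 3.20 to 3.29 in plasmablasts and 3.28 to 3.43 in GC cells. Markers of other cell types differed between the same arrays. T cell markers had 3 of 6 called lower (Cd3e, Cd3g and Cd8a, median difference -1.50), with a list mean of 6.12 to 6.6 in plasmablasts and 7.01 to 7.98 in GC cells. Kupffer cell markers had 0 of 6 called and a median difference of -0.88, with list means that did not overlap (3.30 to 3.97 against 4.08 to 5.06). Clec4f, a lectin of Kupffer cells, was 2.84 to 3.28 against 3.01 to 3.15. General macrophage markers had 0 of 7 called (median difference -1.16, list mean 5.05 to 6.87 against 6.51 to 7.85). Erythroid markers went the other way, with 0 of 5 called and a median difference of 1.30 (list mean 4.47 to 6.91 against 4.32 to 5.04), and bile duct markers, 0 of 6 called, had list means of 3.94 to 4.10 against 3.50 to 3.71. The part of these cell types in the result was not tested. Leaving out GC replicate 3, plasmablast replicate 1 or plasmablast replicate 3 ended the Apoa2 call (limma adjusted p = 0.0558, 0.12 and 0.0668), as did renewed quantile normalization (2.14, limma adjusted p = 0.166), while Alb kept its call in all 18 alternatives tried (2.07 to 2.60). A fit of these 9 arrays alone, or one without the 3 arrays of narrow spread, called 5 of the 10 genes higher, adding Apoa1, Fabp1 and Cps1, as array weights did with Ambp and Hpx in addition (7). Calls rose over all genes in the same fits, to 1679, 845 and 2673 in either direction, against 84 in the main fit.

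In plasma cells of the bone marrow Alb was back at 3.67, 3.42 and 3.81, below every plasmablast array. It fell by 2.19 on the log2 scale (SE 0.32, limma adjusted p = 6.52e-05), the only one of the 10 called lower, where 5.39% of all genes were called lower, a share near 1 of 10. Apoa2 did not pass, with 5.90, 6.09 and 7.84 in plasma cells, the last within the plasmablast range (-0.55 ± 0.54, limma adjusted p = 0.595). Fabp1 was 3.23, 3.29 and 3.12, below the plasmablast arrays (-0.77 ± 0.69, limma adjusted p = 0.555), and Apoa1 was 4.10, 4.43 and 4.15 (-0.70 ± 0.45, limma adjusted p = 0.369). The median difference was -0.41 over the 10 genes and 0.22 over all genes. Serpina1c (-1.32 ± 0.36, limma adjusted p = 0.0162) and Apoc3 (-1.08 ± 0.34, limma adjusted p = 0.035), higher in plasmablasts than in GC cells, fell too. Of the 135 list genes 11 (8.15%) were called higher, near the 8.9% of all genes, and 3 (2.22%) lower. Among the former were Serpinc1, antithrombin (8.13 against 4.28), and the amino acid enzymes Cth (8.25 against 2.79) and Fah (10.26 against 6.30). Markers of other cell types moved both ways. Called lower in plasma cells were 3 of 6 T cell, 3 of 7 macrophage and 2 of 5 erythroid markers, with 0 higher. Called higher were 2 of 6 stellate cell, 2 of 7 enterocyte and 2 of 10 skeletal muscle markers, with 0 lower. Their part was not tested. This comparison also changes the organ. The 18S rRNA signal was 4.02, 4.21 and 7.38 in plasma cells, all below the 10.19 to 10.86 of plasmablasts, and the 3' minus 5' difference was 4.59, 4.46 and 0.45 against 0.93 to 1.16. Stage, organ and RNA quality cannot be told apart.

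From transitional to GC cells, which differ in strain as well as stage, Apob was the only one of the 10 called, where 8.21% of all genes were called lower, again a share near 1 of 10. It was 4.45, 4.68, 4.36 and 4.65 in transitional and 3.32, 3.21, 3.45, 3.68 and 3.53 in GC cells, with no overlap, and fell by 1.10 (SE 0.33, limma adjusted p = 0.0333). Alb, Apoa1, Fabp1 and Hpx also had every transitional array above every GC array, with differences of -0.52 ± 0.28, -0.72 ± 0.39, -0.82 ± 0.60 and -0.70 ± 0.38 that did not pass. Such separation in either direction was found in 34.8% of all genes, and the median difference was -0.59 over the 10 genes and -0.27 over all genes. Of the 135 list genes 2 (1.48%) were higher, against 5.29% of all genes, and 16 (11.9%) lower, among the latter Cyp2c29 (5.72, 5.97, 5.46 and 5.75 against 2.80 to 3.28) and Cyp3a11 (4.44, 4.06, 3.28 and 4.55 against 2.14 to 2.53), both cytochromes P450. Lens and testis genes had a mean of 3.39 to 3.92 in transitional and 3.28 to 3.43 in GC cells. Of T cell markers 4 of 6, and of macrophage markers 5 of 7, were called higher in GC cells. The part of these lists was not tested. The Apob call held in 8 of 18 alternatives and was lost without any 1 of transitional replicates 1, 2 or 4 or GC replicates 1, 2, 3 or 5 (limma adjusted p = 0.051 to 0.0891) and after renewed quantile normalization (-0.65, limma adjusted p = 0.361).

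Among the tumours outside the Myc/Bcl6 group, the Bcl6 tumours carried more Fabp1 signal than GC cells, the normal stage in which Bcl6 is known to act. Fabp1 was 5.60, 5.70, 4.88 and 4.89 in the 4 Bcl6 tumours, above all 5 GC arrays (2.39 to 2.86), and limma gave 2.71 ± 0.62 (adjusted p = 0.00143). It was the only one of the 10 called, where 14.4% of all genes were called higher, so that the count itself is no larger a share than that of all genes. The second Fabp1 probe set gave 4.53, 4.15, 3.57 and 2.92 against 2.17 to 2.54, also with no overlap, and the mean of both probe sets gave 2.06 (limma adjusted p = 0.00143). Itih4 was 4.21, 4.30, 4.22 and 4.37 against 3.26 to 3.84, with no overlap (0.81 ± 0.38, limma adjusted p = 0.106), and Apoa1 was 4.08, 5.11, 4.19 and 3.77 against 3.47 to 3.73 (0.67 ± 0.39, limma adjusted p = 0.193). Alb was 5.46 in replicate 2, the array of narrow spread, and 3.73, 3.50 and 3.26 in the others, which reach into the GC range (0.58 ± 0.34, limma adjusted p = 0.188).

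Of the 135 list genes 27 (20.0%) rose in Bcl6 tumours, against 14.4% of all genes, and 1 (0.741%) fell, against 14.5%. The antiprotease Serpina1b was 2.94, 6.91, 8.95 and 8.0 against 2.24 to 2.33 in GC cells (4.41 ± 0.67, limma adjusted p = 1.2e-05), so that replicate 1 was near the GC level. Fah (8.77 against 6.48) and the acute phase genes Serpina3n (5.54 against 3.65) and Apcs (4.75 against 2.69) also rose. The bile acid transporter Slc10a1 fell (4.74, 3.32, 3.55 and 3.69 against 6.46 to 8.02). Among liver genes also made by other cells, complement factor B (Cfb, 9.05 against 3.70) and ceruloplasmin (Cp, 9.34 against 4.05) rose by over 5 log2 units.

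In the same comparison the lens and testis mean was 3.88, 5.07, 3.68 and 3.67 in Bcl6 tumours and 3.28 to 3.43 in GC cells, and 1 of its 10 genes was called higher. The 3' minus 5' difference and the 18S signal separated the groups completely (3.65 to 4.60 against 0.68 to 1.55, and 4.14 to 4.65 against 10.04 to 11.13), so that tumour and RNA quality cannot be told apart. With the 3' minus 5' difference as a covariate the Fabp1 difference was 1.84 and no longer passed (limma adjusted p = 0.236). Markers of several other cell types also moved. Macrophage markers had 3 of 7 called higher (list mean 8.12 to 9.98 in Bcl6 tumours, 6.51 to 7.85 in GC cells), such as the receptor Csf1r (12.09 against 7.73) and the complement subunit C1qb (12.42 against 8.71). Fat cell markers had 3 of 7 called higher (list mean 4.67 to 5.40 against 3.11 to 3.91), Car3, Lpl and Fabp4, while Adipoq, the fat cell hormone adiponectin, was 2.56 to 3.27 against 2.39 to 2.86. Stellate cell, sinusoidal endothelium and enterocyte markers each had 2 called higher, among them Dcn (7.41 against 3.52) and Anpep (6.11 against 3.79), the latter out of 7 enterocyte genes and the former lists out of 6 each. B-cell markers had 4 of 7 called lower, such as Cd79a (6.96 against 10.92), and 1 higher, and T cell markers had 3 of 6 lower. The part of these cell types in the Fabp1 and list results was not tested.

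In Lig4/p53 tumours 0 of the 10 genes differed from GC cells by limma, and 0 had an unadjusted p under 0.05, where 16.8% of all genes were called in either direction. Fabp1 had a lowest value of 2.41, a median of 2.90 and a highest of 5.67, the last in replicate 5 (0.79 ± 0.56, limma adjusted p = 0.434). The second Fabp1 probe set was 3.29 in that array, within the 2.65 to 3.30 of the group. Alb ran from 3.13 to 3.84 with a median of 3.61 (95% interval of the difference -0.49 to 0.75), Apoa2 from 3.94 to 4.93 with a median of 4.38 (-1.23 to 0.33) and Cps1 from 2.09 to 3.31 with a median of 2.34 (-0.74 to 0.69). The median difference was 0.22 over the 10 genes and 0.12 over all genes. The 135 list genes had 7 (5.19%) higher and 3 (2.22%) lower, against 9.87% and 6.91% of all genes. The 3' minus 5' difference (2.25 to 3.64 against 0.68 to 1.55) and the 18S signal (4.15 to 6.15 against 10.04 to 11.13) separated these groups too. Tumour and RNA quality cannot be told apart here either. Called lower were 5 of 6 T cell, 4 of 7 B-cell and 2 of 5 erythroid markers, with 0 higher, while 1 of 6 stellate cell markers was higher. Their part was not tested.

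Set against each other, the tumour groups differed in Fabp1, which was lower in Lig4/p53 than in Bcl6 tumours (-1.92 ± 0.59, limma adjusted p = 0.0158). Replicate 5 of the Lig4/p53 tumours lay within the range of the Bcl6 tumours and the other 5 below it. It was the only one of the 10 called, where 12.3% of all genes were called lower, also near 1 of 10. Itih4 had no overlap (3.43 to 3.95 against 4.21 to 4.37, -0.57 ± 0.36, limma adjusted p = 0.24). Serpina1b (2.28 against 6.70), Fah (3.49 against 8.77) and Apcs (2.94 against 4.75) fell as well, and of the 135 list genes 5 (3.70%) were higher, against 16.4% of all genes, and 20 (14.8%) lower, near the 12.3% of all genes. Macrophage markers had 4 of 7, T cell markers 5 of 6 (the other 1 higher) and fat cell markers 3 of 7 called lower in Lig4/p53 tumours as well, and their part was not tested. Without Bcl6 replicate 2 the Fabp1 difference was -1.77 and no longer passed (limma adjusted p = 0.0584), nor did it with the 3' minus 5' covariate (-1.50, limma adjusted p = 0.111). The 3' minus 5' difference was 2.25 to 3.64 in Lig4/p53 and 3.65 to 4.60 in Bcl6 tumours. As these ranges do not overlap, tumour type and RNA quality cannot be told apart. On the second Fabp1 probe set, Bcl6 replicate 4 (2.92) lay within the 2.65 to 3.30 of the Lig4/p53 tumours. This comparison and the 2 before it share groups, so they are not independent of each other.

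The genes most like the mean of the 10 across all 35 arrays were Ugt2b5 (Pearson r = 0.98), Fga (0.972), Fgg (0.971), Azgp1 (0.97) and Akr1c6 (0.97), a likeness carried by 1 array. Over the 32 arrays outside the Myc/Bcl6 group they were Fga (0.886), Mboat2 (0.854), Azgp1 (0.833), Sycp1 (0.821) and Mup3 (0.809). Among the first 100 genes, 45 were from the 135 list genes in the first ranking and 11 in the second. Without the 3 arrays of narrow spread as well (29 arrays), Fga (0.85), Mup3 (0.824) and Apoc3 (0.784) came first, and 18 of the first 100 were list genes. In these 29 arrays Apoa1 (r = 0.821) and Alb (0.76) followed the mean of the 10, of which they are part, most closely, and Itih4 (0.241) and Apob (0.189) least.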

How the data were processed

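Per the labels' protocols, RNA came from Tripure extraction and was amplified by a NuGen Ovation kit. The deposited values are log2 intensities per probe set, which the authors made with RMA, per the submitters' processing notes. Its version, and which arrays were normalized together, are not given in the sources used here. Of 22690 probe sets, 20380 with 1 symbol and no control role gave 12393 genes, each taken from its probe set of highest mean. The 691 with several symbols, 1555 with none and 64 controls were left out. The number of arrays limits the precision.

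Groups came from the titles. Genes were compared in limma 3.58.1 (R 4.3.3) and called at a Benjamini-Hochberg adjusted p under 0.05 over all genes. Comparisons of sorted cells used the 22 sorted arrays. Those with tumours used 32 arrays, without the Myc/Bcl6 arrays that chose the genes. P-values measure the spread between arrays, which may be technical, and errors are standard errors. The code was tested on simulated data. Named genes beside the 10 were, per list, up to 4 of smallest p among called genes and up to 4 of largest difference in the Myc/Bcl6 arrays, and genes of like pattern. Afp, Adipoq, Pdia4 and single B-cell and pancreas genes were named after their values were seen. The genes and lists were chosen with earlier results of these data known. Alternatives tried were a per-gene mean of probe sets, leaving out dim genes, renewed normalization, equal medians, array weights, a trended robust prior, other sample sets, the replicate block, a 3' minus 5' covariate and leaving out each array.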

Additional observations from a re-analysis of the deposited data

Results flagged for a closer look

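In groups of 4 to 10 arrays, 50 sets of values of the 10 genes were examined for a highest or lowest array standing apart by Dixon's criterion, which chance meets in about 1 of 20, and 5 met it. Alb was 6.83 in plasmablast replicate 1 against 5.43 to 5.58 in the other plasmablasts, so the array farthest from the others was also farthest from GC cells. Apoa2 was 4.01 in Bcl6 tumour replicate 3, below the 4.98 to 5.09 of the other Bcl6 tumours. Fgb was 4.06 and Ambp 3.96 in Lig4/p53 tumour replicate 5 against 2.60 to 3.08 and 2.60 to 3.03 in the other 5, in the array that also held the highest Fabp1 (5.67) and a raised lens and testis mean (3.99). Cps1 was 3.60 in transitional replicate 2 against 2.98 to 3.07. The Myc/Bcl6 group of 3 was too small for this criterion.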

How the results depend on the processing

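In Myc/Bcl6 replicate 2 the count of the 10 genes over 2 log2 units was 10 under all 3 alternatives run for it. In replicates 1 and 3 it was 0, which was all but fixed beforehand, since their reference includes replicate 2. The array that chose the genes thus sets these counts, and their stability supports nothing. The count of 0 for Lig4/p53 tumours against GC cells was 0 in all alternatives run, array weights included. Other counts of the 10 genes called in either direction moved. For plasmablasts against GC cells (2) the count was 1 after renewed quantile normalization (Apoa2 lost), 7 with array weights, 5 in the compared groups alone, 5 without the 3 arrays of narrow spread, and 1 to 3 with 1 array left out. For plasma cells against plasmablasts (1) the count was 5 with array weights, 2 without the arrays of narrow spread and 1 with any array left out. All genes called were 1771 in the main fit, 5987 with array weights and 4029 without the arrays of narrow spread. For GC against transitional cells (1) it was 0 after renewed quantile normalization, 0 with equal array medians, 3 with array weights, 6 in the compared groups alone, 3 without the arrays of narrow spread, and 0 to 1 with 1 array left out. For Bcl6 tumours against GC cells (1) the count was 2 with array weights, 2 in the compared groups alone, 2 without the arrays of narrow spread, 0 with the 3' minus 5' covariate, and 1 with any array left out. All genes called were 3580 in the main fit, 4845 with array weights and 4229 in the compared groups alone. They were 4769 without the arrays of narrow spread and 898 with the covariate. For Lig4/p53 against Bcl6 tumours (1) the count was 0 after renewed quantile normalization, 2 with array weights, 2 in the compared groups alone, 0 with the 3' minus 5' covariate, 2 without the arrays of narrow spread, 0 in a fit of all 35 arrays, and 0 to 1 with 1 array left out. All genes called were 3561 in the main fit, 2733 after that normalization, 4720 with array weights and 4110 in the compared groups alone. They were 2601 with the covariate, 4402 without the arrays of narrow spread and 3271 in all 35 arrays. The cause of these moves was not tested. Replicate numbers were not treated as pairs in the main fits. The deviations of same-numbered arrays from their group means had correlations of -0.19 to 0.22. In no comparison did every array correlate best with its own number (at most 3 of 4, in GC against transitional cells). With so few arrays this check cannot exclude pairing. With the replicate block, Apob in GC against transitional cells was -1.12 (limma adjusted p = 0.0854, a count of 0), and the block changed no other call. No direction of a called gene reversed. Leaving out dim genes removed Alb, Apob and Fabp1, and also Itih4, Hpx, Ambp, Cps1 and Fgb, whose means over all arrays were below that of Alb. No count is therefore given. It kept Apoa2 (2.36, limma adjusted p = 0.0226). The count of all genes called moved more: 31 to 2673 for plasmablasts against GC cells.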

Other observations

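Exocrine pancreas genes stood high in single arrays, in GC replicate 3 without raised liver transcripts. In the narrow-spread arrays pre-B replicate 2 and Bcl6 replicate 2, Prss2 was 8.27 and 6.64 and Cela3b 6.80 and 7.69. Ctrb1 was 4.45 and 5.38 there, and the mean of the 10 liver transcripts 5.32 and 4.54. In GC replicate 3, Prss2 (trypsin 2) was 6.49, Cela3b (an elastase) 7.47 and Ctrb1 (chymotrypsinogen B) 7.43. In the other GC arrays Prss2 was 2.64 to 4.71, Cela3b 3.66 to 4.68 and Ctrb1 3.14 to 5.08. Alb in GC replicate 3 was 3.24, the lowest of the 5 GC arrays. In plasmablasts Ctrb1 was 4.21, 5.97, 5.83 and 5.09, lowest in replicate 1, the array with the highest Alb, Apoa1 and Apoa2. These genes were chosen after their values were seen and the differences were not tested.

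In pro-B replicate 1 the complement component C8a was 10.97, against 2.67 and 2.63 in the other pro-B arrays and 10.69 in Myc/Bcl6 replicate 2, while Alb was 4.01 there and Serpina1c 2.86.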
